A study of Homo sapiens with 12 samples.

Results

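The Wnt and β-catenin target genes AXIN2, LGR5, NKD1, LEF1, TBX3, GLUL, ZNRF3, RNF43, SP5 and NOTUM were followed in sorafenib-resistant and parental liver cancer cells. They were picked by symbol as known targets, with earlier results of these data in view, and all 10 were found once in every table, among 27249 genes with an Ensembl identifier. RNA was sequenced from Huh7 and HepG2, 2 human cell lines that the labels describe as hepatocellular carcinoma cells of genotype WT, with 3 samples in each of the 4 groups. Resistant cells of either line had been selected with sorafenib, a multikinase inhibitor, over 8 months of rising concentrations from a first dose of 10 μmol, and parental cells, labelled sensitive, had received no treatment. Whether the samples of a group came from separate cultures was not given, nor whether the drug was present at harvest, and p-values therefore measure only the spread between these samples. Each resistant line was derived from a single parental line, so selection for resistance and any other event of the long culture cannot be told apart.

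In canonical Wnt signalling, a secreted Wnt protein binds a Frizzled receptor and its co-receptor at the cell surface, and the cytoplasmic complex that marks β-catenin (encoded by CTNNB1) for degradation is switched off. β-catenin then enters the nucleus and activates genes together with TCF and LEF factors. Many of the induced genes feed back on the pathway. In the liver the pathway is best known for setting the pericentral programme of hepatocytes around the central vein, of which glutamine synthetase is a hallmark. HepG2 is known to carry a deletion in CTNNB1 that stabilises β-catenin, a lesion not known in Huh7. Values per gene do not show this deletion.

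Values are FPKM, the number of sequenced fragments scaled to the exon length of the gene and to the depth of the sample. Levels of different genes can be compared only roughly, because that length counts all merged exons of a gene. Estimated from the values, a sample held 12290130 to 19285961 reads, and every resistant sample held more than every parental sample of its line. In Huh7 these were 18972400 to 19285961 reads in resistant and 16158299 to 17944449 in parental samples. In HepG2 they were 16935543 to 18281774 and 12290130 to 15728848. Samples of the same group correlated with Pearson coefficients of 0.964 to 0.986 on log2(FPKM + 1), with the lowest value between replicates 1 and 2 of resistant HepG2 cells. All 10 hepatocyte markers examined (albumin and others) were at 1 FPKM or more on average in each group, and their summed level was 5223 to 5356 FPKM in resistant and 7864 to 9725 FPKM in parental Huh7 cells, and 3914 to 4200 FPKM in resistant and 4971 to 6092 FPKM in parental HepG2 cells. AFP alone averaged 2291 FPKM in resistant and 5332 FPKM in parental Huh7 cells, and 366 and 1394 FPKM in HepG2. On log2(FPKM + 1), 6 of the 10 had a difference above 0 in each line. In HepG2, HNF4A, TTR and APOB were among them at only 0.01, 0.02 and 0.10, under the all-gene median of 0.12. At an unadjusted p-value under 0.05 (limma), 3 were higher and 3 lower in Huh7, and 2 and 3 in HepG2. At the thresholds given below, 0 were called higher in either line (8.59% of all genes in Huh7, 3.29% in HepG2). Called lower were 1 in Huh7 and 2 in HepG2, beside 14% and 2.98% of all genes. The 10 markers of leukocytes, endothelium and fibroblasts summed to 4.61 to 5.05 FPKM in resistant and 3.07 to 4.09 FPKM in parental Huh7 cells, and to 15.96 to 23.2 FPKM in resistant and 17.7 to 26.7 FPKM in parental HepG2 cells. ACTA2 alone averaged 15.9 FPKM in resistant and 18.8 FPKM in parental HepG2 cells, and 0.123 and 0.503 FPKM in Huh7. In bulk RNA, fewer cells that express a gene and less RNA per cell cannot be told apart.

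SP5 encodes a zinc finger repressor that is a direct target of β-catenin, and its start carries a dense set of TCF/LEF core letters. The 250 bases before the RefSeq start of SP5 (GRCh38.p14, chr2:170715087-170715336, plus strand) are shown because this gene had the largest ratio of reads among the 10 genes in resistant against parental HepG2 cells. Capitals mark the core TCAAAG, searched on both strands, and its reverse complement CTTTGA.
SP5: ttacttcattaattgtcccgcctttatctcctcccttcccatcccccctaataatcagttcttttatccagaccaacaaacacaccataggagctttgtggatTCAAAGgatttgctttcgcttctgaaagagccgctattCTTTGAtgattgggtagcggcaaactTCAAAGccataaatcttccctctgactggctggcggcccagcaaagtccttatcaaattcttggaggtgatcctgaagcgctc
The core is found at 147 to 142 and 83 to 78 bases before the start on the plus strand and at 109 to 104 bases before the start on the other. Among 35116 RefSeq promoters of the same length, 11.2% held at least 1 match and 23 (0.0655%) held 3 or more. Of the 4 genes with a promoter sequence at hand (GLUL, LEF1, RNF43 and SP5, with 6 starts), SP5 alone held the core. A match is a description of the letters and not a measured binding site.

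**Figure D1:**
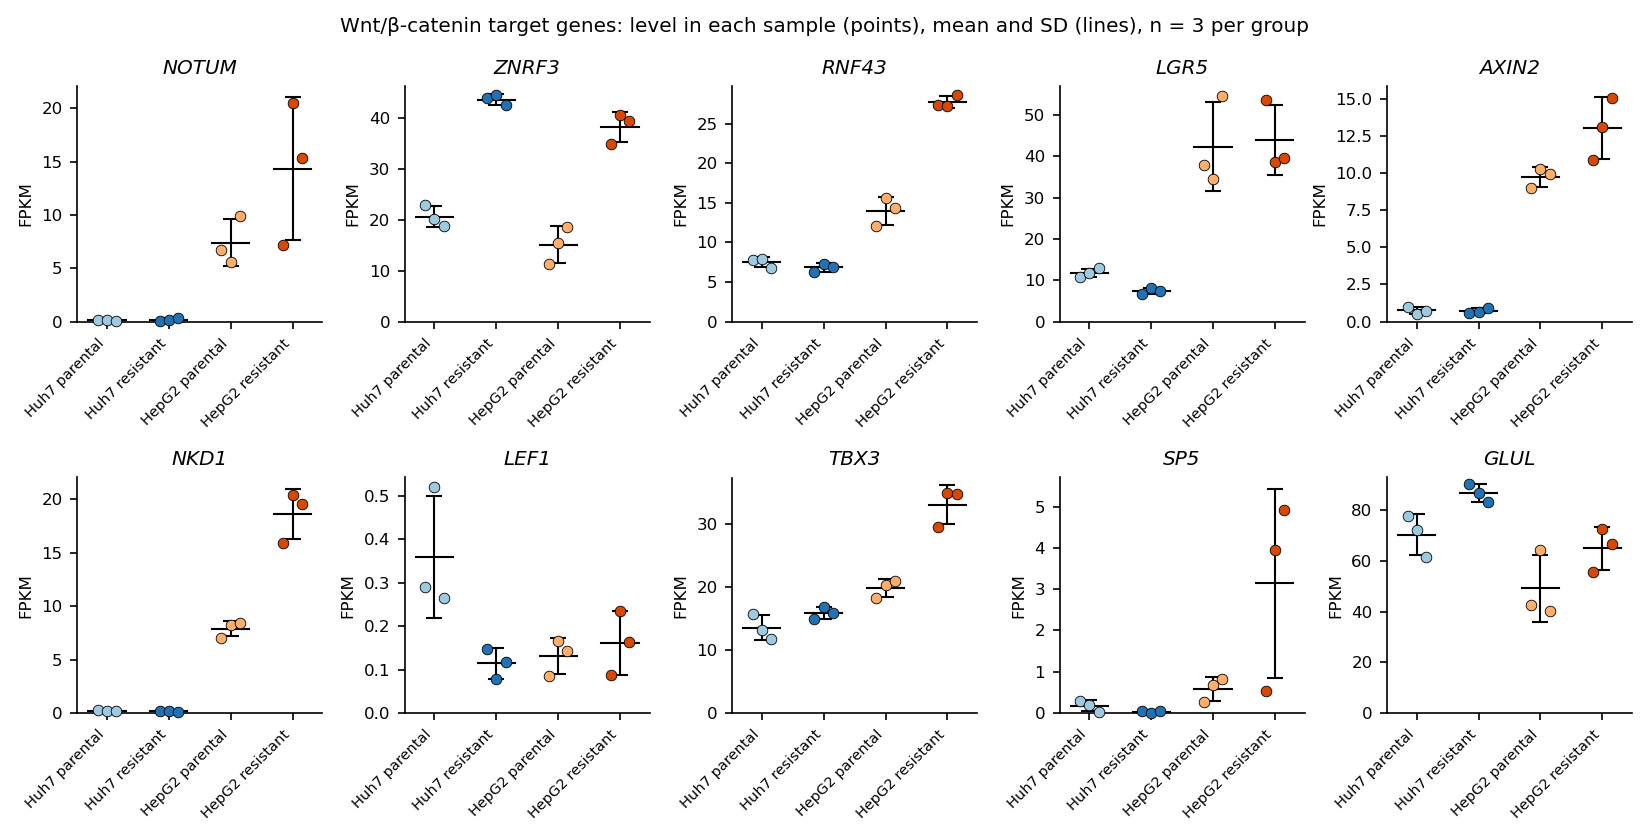
FPKM of the 10 Wnt target genes in each of the 12 samples (y axes, linear and starting at 0, 1 panel per gene); points are samples and lines mark group means with SD (n = 3). AXIN2, NKD1 and NOTUM lie above 5 FPKM in all HepG2 samples and near the floor in Huh7, whereas ZNRF3 is higher in the resistant samples of both lines.

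Resistant and parental cells were compared within each line to ask which target genes moved with sorafenib resistance. ZNRF3 rose in both lines, about 2.12-fold in Huh7 and 2.53-fold in HepG2 by the ratio of mean FPKM. NKD1 rose 2.36-fold in HepG2, and RNF43 and TBX3 were higher there without reaching the fold threshold. In Huh7, LGR5 was lower at 0.625 times its parental level. A gene was called when the two-sided moderated test of limma, run on log2(FPKM + 1) and adjusted over all genes tested by the Benjamini-Hochberg method, gave an adjusted p-value under 0.05 and the log2 difference was beyond 1 in either direction. Testing required 1 FPKM or more in 3 or more samples out of the 6 per line, which left 5 of the 10 target genes in Huh7 (LGR5, TBX3, GLUL, ZNRF3 and RNF43) and 8 in HepG2 (all but LEF1 and SP5).

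In Huh7, 1 of the 5 tested target genes was called higher (ZNRF3), where 8.59% of 12554 genes were called higher. None was called lower by limma, where 14% of all genes were. At an unadjusted p-value under 0.05, LGR5 was lower, where 9145 of 12554 genes passed in either direction. Limma-voom on read numbers calculated back called 0 of the same target genes lower, beside 21.2% of all genes. The 5 tested target genes had a median log2 difference of 0.22, against -0.04 for all genes tested. In HepG2, 2 of the 8 tested were called higher (ZNRF3 and NKD1), where 3.29% of 11762 genes were. By limma, 0 were called lower (2.98% of all genes), and the same count of 0 was found at an unadjusted p-value under 0.05 and by limma-voom. Of 11762 genes, 4300 passed that unadjusted level in either direction, and limma-voom called 4.35% of all genes lower. All 8 target genes had a positive log2 difference, with a median of 0.75 against 0.12 for all genes tested. The all-gene median moved with the scaling of the libraries, to 0.09 in Huh7 and 0.00 in HepG2 with upper-quartile scaling. The split of all genes called higher and lower moved likewise, from 1079 and 1759 to 1549 and 1356 in Huh7 and from 387 and 350 to 265 and 456 in HepG2. With that scaling, 7 of the 8 genes kept a positive difference in HepG2, LGR5 being the exception at -0.07, and NKD1 was at 1.01, ZNRF3 at 1.17, RNF43 at 0.81 and TBX3 at 0.57.

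**Figure D2:**
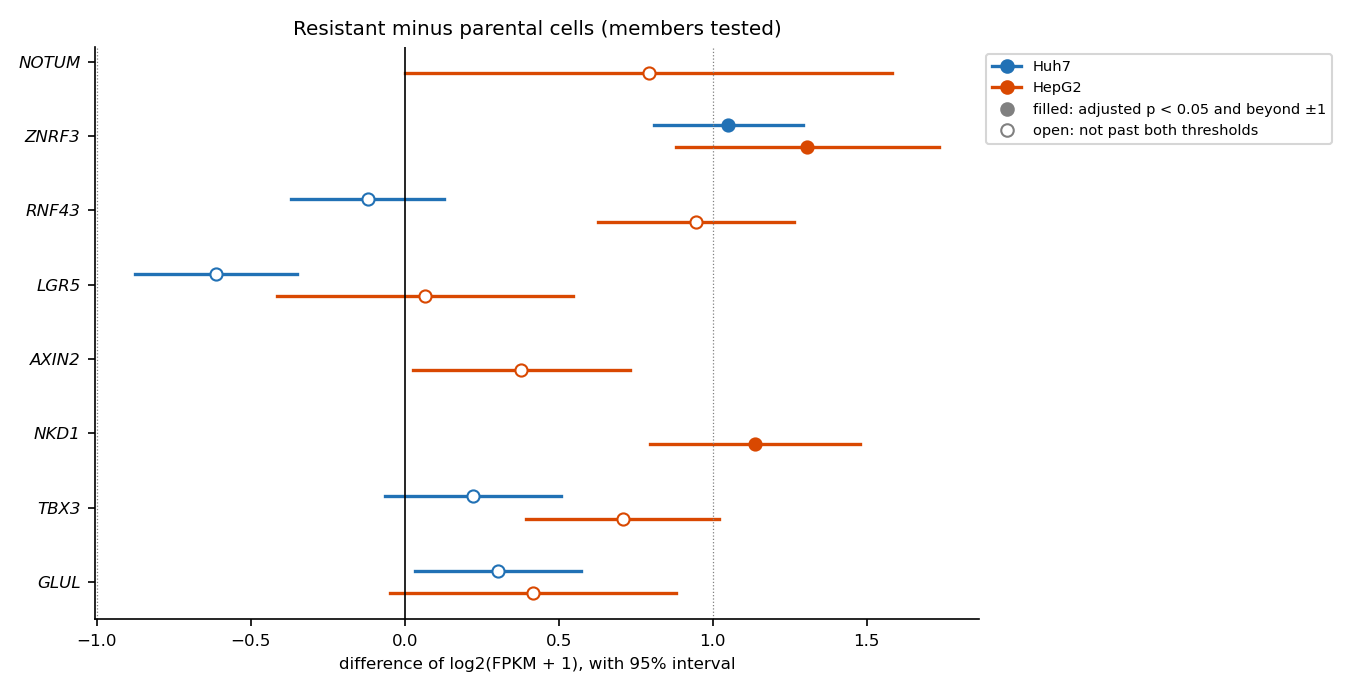
Resistant minus parental difference of log2(FPKM + 1) for the target genes tested in Huh7 and in HepG2 (x axis), with 95% intervals from limma (n = 3 samples against 3); filled points passed both thresholds and open points did not. ZNRF3 lies beyond 1 in both lines, RNF43 and TBX3 lie further right in HepG2 than in Huh7, and NKD1 lies beyond 1 in HepG2 and has no point in Huh7, where it was not tested.

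NOTUM encodes a secreted enzyme that removes the lipid of Wnt proteins and so inactivates the ligand (chr17:81952507-81961840, minus strand; here and below, GRCh38 coordinates of the gene). In parental HepG2 cells NOTUM was at 6.69, 5.61 and 9.88 FPKM and in resistant HepG2 cells at 7.18, 20.5 and 15.4 FPKM. The groups overlapped, because resistant replicate 1 lay within the parental range. The log2 difference was 0.79 (SE 0.345, 95% interval 0.0022 to 1.58) and was not called (adjusted p = 0.136, limma). Without resistant replicate 1 it was 1.19 with an adjusted p-value of 0.0122. In Huh7 the gene lay at 0.0615 to 0.148 FPKM in parental and 0.0873 to 0.348 FPKM in resistant cells, on 18 and 31 reads in all, and was not tested.

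ZNRF3 and RNF43 encode membrane ubiquitin ligases that remove Frizzled receptors from the cell surface, and are antagonists of the pathway. ZNRF3 (chr22:28883592-29057487, plus strand) was at 22.9, 20.1 and 18.9 FPKM in parental and 43.9, 44.6 and 42.6 FPKM in resistant Huh7 cells. It was at 11.3, 15.5 and 18.7 FPKM in parental and 34.96, 40.5 and 39.5 FPKM in resistant HepG2 cells. In either line every resistant sample lay above every parental sample. The log2 difference was 1.05 in Huh7 (SE 0.106, adjusted p = 8.26e-05, limma) and 1.31 in HepG2 (SE 0.187, adjusted p = 0.00297). The Huh7 call stood at the edge of the fold threshold, since without parental replicate 3 the difference was 0.99 (adjusted p = 0.000247), and after removal of the GC trend described below it was 0.62 (adjusted p = 0.000172).

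RNF43 (chr17:58352500-58417595, minus strand) behaved differently in the lines. In Huh7 it was at 7.82, 7.93 and 6.81 FPKM in parental and 6.29, 7.32 and 6.90 FPKM in resistant cells, and the groups overlapped. In HepG2 it was at 12.1, 15.6 and 14.3 FPKM in parental and 27.3, 27.3 and 28.7 FPKM in resistant cells, a 1.98-fold higher mean with no overlap. The log2 difference in HepG2 was 0.95 (SE 0.139, adjusted p = 0.0034, limma), just under the fold threshold, and 1.02 (adjusted p = 0.00656) without parental replicate 2. In Huh7 it was -0.12 (95% interval -0.37 to 0.13, adjusted p = 0.344). Of the 7505 exon bases of RNF43, 4326 are shared with AC004687.2 on the same strand, and how the authors' counting assigned such reads was not given in the sources used here, so its level is uncertain.

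LGR5, a receptor for R-spondins that restrain ZNRF3 and RNF43, is a marker of Wnt-dependent stem cells and of pericentral hepatocytes (chr12:71439770-71586310, plus strand). It was at 10.8, 11.7 and 12.8 FPKM in parental and 6.67, 8.17 and 7.30 FPKM in resistant Huh7 cells, all resistant samples below all parental ones. The log2 difference was -0.61 (SE 0.114, adjusted p = 0.00151, limma), within the fold threshold. In HepG2 it was at 37.8, 34.5 and 54.6 FPKM in parental and 53.7, 38.6 and 39.5 FPKM in resistant cells. The HepG2 groups overlapped widely, with a log2 difference of 0.07 (95% interval -0.42 to 0.55, adjusted p = 0.845).

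AXIN2 and NKD1 encode cytoplasmic feedback inhibitors, the first a scaffold of the β-catenin degradation complex and the second a binding partner of Dishevelled. AXIN2 (chr17:65528563-65561647, minus strand), often used as a readout of the pathway, was at 9.01, 10.3 and 9.98 FPKM in parental and 10.9, 13.2 and 15.1 FPKM in resistant HepG2 cells. Resistant samples all lay above parental ones, but the log2 difference of 0.38 (SE 0.154, 95% interval 0.03 to 0.73) was not called (adjusted p = 0.115, limma). In Huh7, AXIN2 was at 1.00, 0.4998 and 0.734 FPKM in parental and 0.575, 0.665 and 0.916 FPKM in resistant cells and was not tested. The Huh7 samples overlapped on 200 parental and 215 resistant reads, a ratio of 0.956 (95% interval 0.785 to 1.17, counting error only). Of the 5226 exon bases of AXIN2, 1316 are shared with AC004805.1 on the same strand, which was at 0 to 0.151 FPKM. How reads in the shared bases were assigned was not given.

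NKD1 (chr16:50548330-50649249, plus strand) was at 7.04, 8.25 and 8.40 FPKM in parental and 15.9, 20.4 and 19.5 FPKM in resistant HepG2 cells. The resistant samples were clearly separate from the parental ones, with a log2 difference of 1.14 (SE 0.149, adjusted p = 0.00208, limma). In Huh7 the gene lay at 0.178 to 0.262 FPKM in parental and 0.139 to 0.173 FPKM in resistant cells. These Huh7 groups did not overlap, but with no filter on low values the adjusted p-value was 0.175 (limma). The merged exons of NKD1 span 17425 bases, the longest of the 10 genes, and its FPKM rests on many reads at a given level.

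LEF1, TBX3 and SP5 encode nuclear proteins. LEF1 (chr4:108047545-108168956, minus strand), a partner of β-catenin on DNA, was at 0.291, 0.520 and 0.266 FPKM in parental and 0.147, 0.0774 and 0.118 FPKM in resistant Huh7 cells. All 3 resistant samples lay below the parental ones, on 35 against 98 reads, a ratio of 0.318 (95% interval 0.210 to 0.472, counting error only). An exact permutation test, two-sided, gave p = 0.1, the smallest value that 3 samples against 3 allow. The gene was not tested in the fit because no sample reached 1 FPKM; with no filter on low values, the log2 difference was -0.28 (adjusted p = 0.0313, limma), and with limma-voom on read numbers it was -1.60 (adjusted p = 0.00205). In HepG2 it lay at 0.0852 to 0.167 FPKM in parental and 0.0881 to 0.235 FPKM in resistant cells, and the groups overlapped.

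TBX3 (chr12:114670254-114684164, minus strand), a T-box transcription factor, was at 18.3, 20.2 and 20.9 FPKM in parental and 29.5, 34.8 and 34.7 FPKM in resistant HepG2 cells. The resistant samples were higher without overlap, with a log2 difference of 0.71 (SE 0.137, adjusted p = 0.0101, limma), under the fold threshold. In Huh7 it was at 15.7, 13.2 and 11.7 FPKM in parental and 14.9, 16.9 and 15.8 FPKM in resistant cells. Those groups overlapped, and the log2 difference was 0.22 (95% interval -0.06 to 0.51, adjusted p = 0.141).

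SP5 (chr2:170715351-170718078, plus strand), the gene whose promoter letters are printed above, was counted by 7, 17 and 27 reads in parental and 19, 149 and 174 reads in resistant HepG2 cells, or 0.259, 0.671 and 0.833 FPKM against 0.545, 3.96 and 4.91 FPKM. Replicate 1 of the resistant cells stayed within the parental range and the other two lay far above it. The pooled reads gave a ratio of 5.26 (95% interval 3.91 to 7.21, counting error only). With no filter on low values the log2 difference of 1.18 had an adjusted p-value of 0.25 (limma), and limma-voom on read numbers calculated back gave 2.02 with an adjusted p-value of 0.0404. In Huh7 there were 11, 7 and 1 reads in the parental samples and 2, 0 and 2 reads in the resistant ones. The ratio of these pooled reads was 0.187 (95% interval 0.0463 to 0.564, counting error only), and the samples overlapped. With no filter, limma-voom gave -1.99 in Huh7 (adjusted p = 0.0366), and limma on log2(FPKM + 1) gave -0.18 (adjusted p = 0.152).

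GLUL (chr1:182381704-182392206, minus strand), glutamine synthetase, which joins ammonia to glutamate in pericentral hepatocytes, had the highest mean level of the 10 genes in each group. It was at 77.5, 72.05 and 61.4 FPKM in parental and 90.1, 86.6 and 83.0 FPKM in resistant Huh7 cells, with no overlap. The log2 difference was 0.30 (SE 0.118, adjusted p = 0.0467, limma), and over the alternatives the adjusted p-value ran from 0.00391 to 0.133. In HepG2 it was at 42.8, 64.3 and 40.4 FPKM in parental and 55.8, 72.5 and 66.5 FPKM in resistant cells. The HepG2 groups overlapped, with a log2 difference of 0.42 (95% interval -0.05 to 0.88, adjusted p = 0.175).

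Replicate 1 of the resistant HepG2 cells was the lowest of its group for 8 of the 10 target genes, where it was the lowest for 43.6% and the highest for 43.2% of the 11762 genes tested. It was the highest for LGR5 and between the others for RNF43. The part of this library in the HepG2 results was measured by leaving it out: NOTUM became called, as given above, and the number of called genes was then 3 in place of 2.

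Whether resistance moved the target genes differently in HepG2 and in Huh7 was tested by the interaction of line and resistance in 1 fit over all 12 samples. The filter was then 1 FPKM in at least 3 of the 12 samples, and AXIN2, NKD1 and NOTUM passed it through HepG2 alone. The signed difference, resistant minus parental, was greater in HepG2 with an adjusted p-value under 0.05 for 4 of the 8 genes tested (NKD1, RNF43, TBX3 and LGR5), where 33.2% of 13800 genes were. For LGR5 it was -0.61 in Huh7 and 0.07 in HepG2, so the larger change was the fall in Huh7. NKD1 differed by 1.22 (SE 0.155, adjusted p = 9.5e-05, limma) and RNF43 by 1.07 (SE 0.152, adjusted p = 0.000188), and both kept an adjusted p-value under 0.05 in every alternative fit. NKD1 lay near the floor of log2(FPKM + 1) in Huh7, where that scale can hardly move, so its difference and its place in the count of 4 follow mostly from the rise in HepG2; limma-voom on read numbers, which has no such floor, gave 1.72 (adjusted p = 0.00012). TBX3 differed by 0.49 (adjusted p = 0.0283) and LGR5 by 0.68 (adjusted p = 0.0359). With upper-quartile scaling TBX3 differed by 0.17 (adjusted p = 0.409) and LGR5 by 0.36 (adjusted p = 0.197), and the median of all genes moved from 0.15 to -0.09. The split of all genes under that scaling was 3455 greater and 4455 smaller in HepG2, in place of 4586 and 3182. For ZNRF3 the difference was 0.26 (95% interval -0.21 to 0.73, adjusted p = 0.326), so a greater change in either line was not shown.

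The parental lines were compared with each other because only HepG2 is known to carry the CTNNB1 deletion. Several target genes stood far higher in HepG2, NKD1 by 35.3 times, AXIN2 by 13.1 times and NOTUM by 63.9 times in mean FPKM, and LGR5 by 3.58 times. On log2(FPKM + 1) the differences were 2.86 for NKD1 (adjusted p = 1.16e-09, limma), 2.63 for AXIN2 (adjusted p = 2.06e-08), 2.88 for NOTUM (adjusted p = 4.79e-06) and 1.73 for LGR5 (adjusted p = 4.37e-06). NOTUM rested on 18 reads in parental Huh7 cells, and the ratio of its pooled reads was 64.8 (95% interval 40.8 to 110, counting error only). In all, 4 of the 8 tested genes were called higher in HepG2, where 11.9% of 13800 genes were, and limma called 0 lower, where 18.3% were. NKD1, AXIN2 and NOTUM had passed the filter through HepG2 alone and so had to be higher there, and nothing is read from this count; of the 5 genes above the filter level in both lines, LGR5 was called. GLUL and ZNRF3 were lower at an unadjusted p-value under 0.05 and within the fold threshold, where 9655 of 13800 genes passed that unadjusted level in either direction. Limma-voom on the same target genes called 0 lower, beside 25.1% of all genes. The line, its genotype and any difference in handling cannot be told apart.

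RNF43 and TBX3 were also higher in parental HepG2 cells, by 0.81 (adjusted p = 4.11e-05, limma) and 0.52 (adjusted p = 0.00214) on the log2 scale. GLUL and ZNRF3 went the other way, at -0.53 (adjusted p = 0.0159) and -0.44 (adjusted p = 0.0218), although GLUL is a well known target of β-catenin in the liver. With upper-quartile scaling these were -0.31 (adjusted p = 0.151) and -0.23 (adjusted p = 0.174), and the all-gene median moved from -0.18 to -0.00, with 2099 genes called higher and 2018 lower in place of 1641 and 2521. LEF1 was under 1 FPKM in every sample of both lines, and lower in all 3 parental HepG2 samples than in any parental Huh7 sample, on 29 against 98 reads. CTNNB1 itself was at 41.0 ± 0.901 FPKM in parental HepG2 and 39.98 ± 2.73 FPKM in parental Huh7 cells (SD, n = 3), a log2 difference of 0.04 (adjusted p = 0.764, limma).

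The same comparison was made in resistant cells. NKD1 was 117.6 times higher in HepG2 than in Huh7, NOTUM 79.8 times, AXIN2 18.2 times, LGR5 5.96 times and RNF43 4.06 times by mean FPKM. Among the 8 tested genes, 6 were called higher (NKD1, NOTUM, AXIN2, LGR5, RNF43 and TBX3), where 13.4% of all genes were, and limma called 0 lower, where 13.3% were. GLUL was lower at an unadjusted p-value under 0.05, where 9300 of 13800 genes passed in either direction. Limma-voom called 0 of the target genes lower, beside 18.7% of all genes. NKD1, NOTUM and AXIN2 were again tested through their HepG2 level alone, and nothing is read from the count of 6; of the other 5 genes, LGR5, RNF43 and TBX3 were called. TBX3 passed the fold threshold narrowly at 1.01 (adjusted p = 1.75e-05, limma) and lay at 0.97 without Huh7 resistant replicate 1, HepG2 resistant replicate 2 or HepG2 resistant replicate 3, at 0.98 with median-ratio scaling and at 0.90 with upper-quartile scaling. SP5, not tested, had 342 reads in resistant HepG2 and 4 in resistant Huh7 cells, and its groups did not overlap; with no filter on low values it was called as well (1.79, adjusted p = 0.00505, limma). ZNRF3 stood in the resistant cells at 38.3 ± 2.97 FPKM in HepG2 and 43.7 ± 0.989 FPKM in Huh7 (SD, n = 3), with a log2 difference of -0.19 (95% interval -0.52 to 0.14, adjusted p = 0.298).

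**Figure D3:**
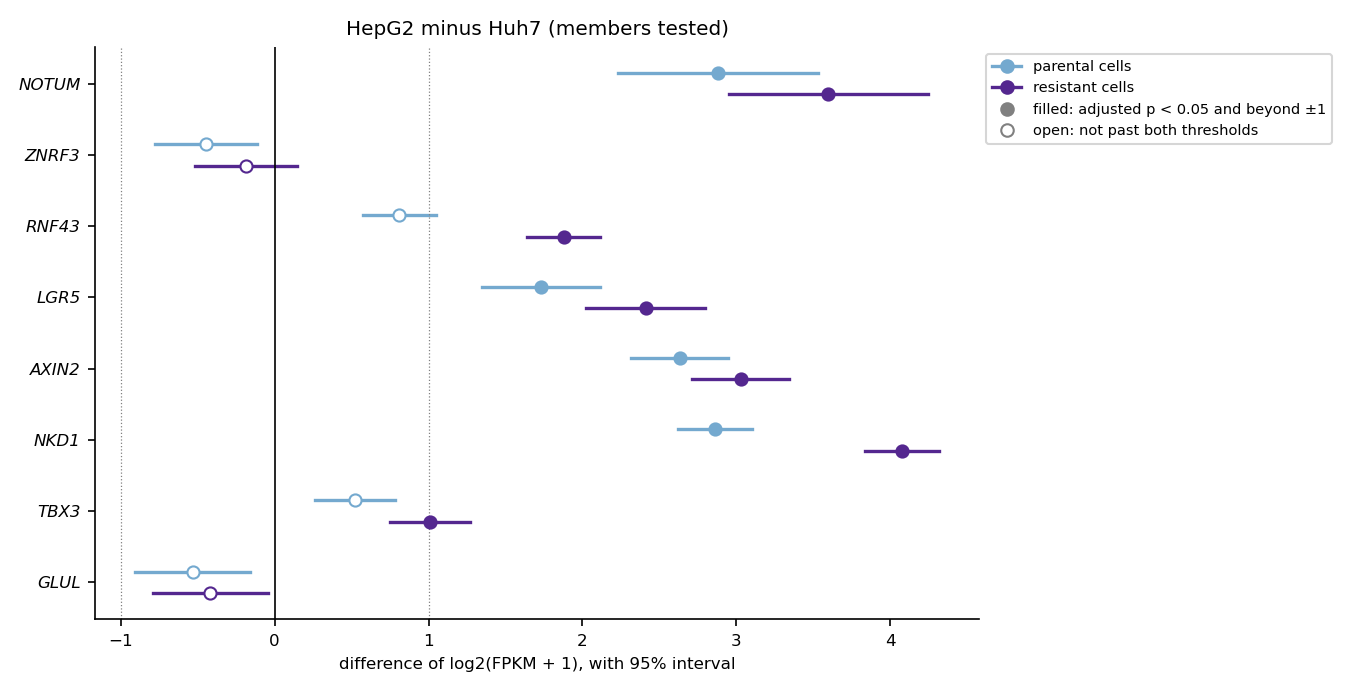
HepG2 minus Huh7 difference of log2(FPKM + 1) for the 8 target genes tested, in parental and in resistant cells (x axis), with 95% intervals from limma (n = 3 samples against 3); filled points passed both thresholds. NOTUM, LGR5, AXIN2 and NKD1 lie beyond 1 in both states, whereas GLUL and ZNRF3 lie below 0.

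The 5 genes whose pattern over the 12 samples was most like that of AXIN2, by Pearson correlation of log2(FPKM + 1) among 13800 genes, were BTBD11 and UPRT (both 0.996), and PLA2G2E, TSHZ1 and SLCO4A1 (all 0.995). PLA2G2E, a secreted phospholipase, was at 51.9 FPKM in resistant and 30.5 FPKM in parental HepG2 cells and at 0.133 and 0.148 FPKM in resistant and parental Huh7 cells. The samples fall into the 2 lines, and such a correlation mostly describes the gap between them.

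In Huh7 the change of a gene with resistance followed the GC content of its transcript. Over 12545 genes, the Spearman correlation of GC content with the log2 difference was 0.617 in Huh7 and 0.0389 in HepG2 over 11756 genes, given here as a description across genes of the same libraries. ZNRF3 (53.5% GC), TBX3 (52.4%) and RNF43 (50.7%) lay above the median of 46.7% for genes tested in Huh7, and LGR5 (43.8%) and GLUL (44.3%) below it. Against that trend, the Huh7 difference was -0.12 for RNF43 and 0.30 for GLUL. With the GC trend of each library removed, the Huh7 differences were 0.62 for ZNRF3 (adjusted p = 0.000172, limma), -0.15 for TBX3 (adjusted p = 0.143), -0.32 for LGR5 (adjusted p = 0.00557), 0.54 for GLUL (adjusted p = 0.00391) and -0.40 for RNF43 (adjusted p = 0.00349). The HepG2 differences stayed at 1.23 for ZNRF3, 1.07 for NKD1, 0.88 for RNF43 and 0.64 for TBX3. Over all genes, removal of the trend left 703 called higher and 787 lower in Huh7.

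**Figure D4:**
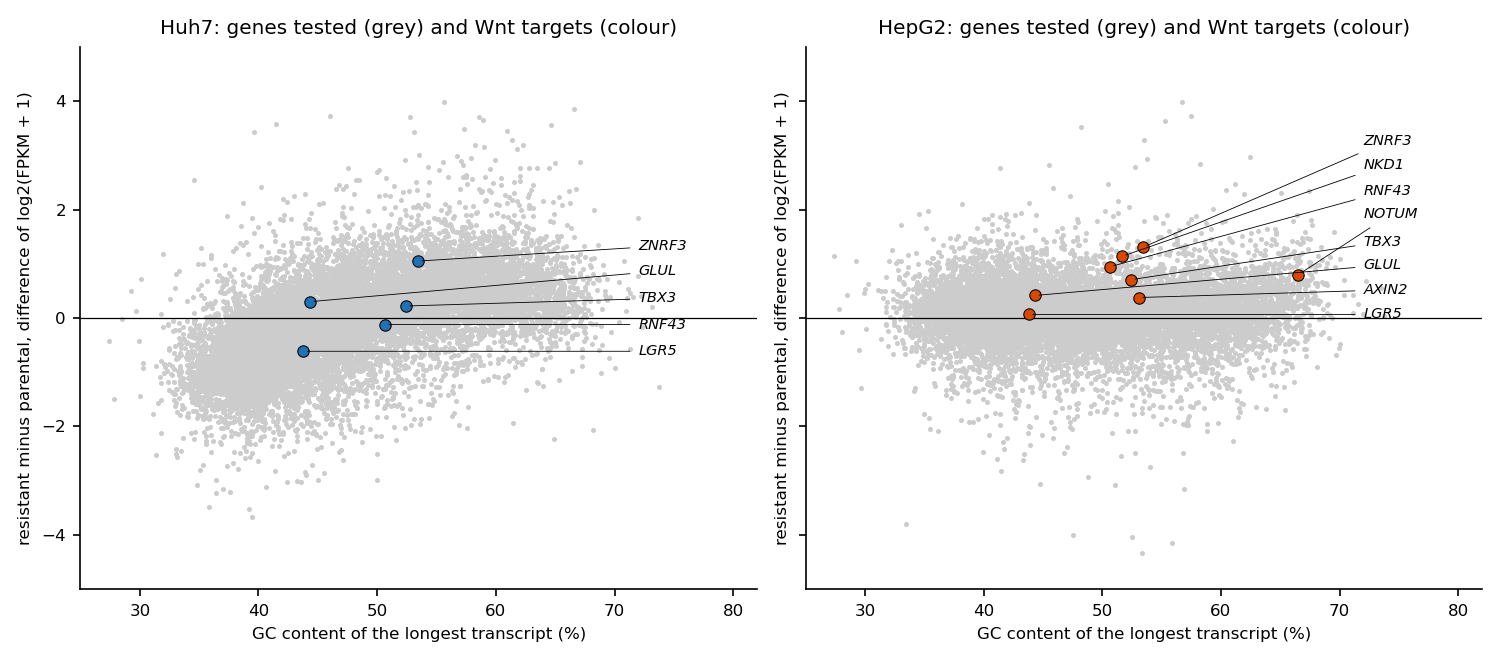
Resistant minus parental difference of log2(FPKM + 1) (y axis) against the GC content of the longest transcript (x axis, %) for the genes tested in Huh7 and HepG2; grey points are genes and coloured points the Wnt target genes. The grey cloud rises with GC content in Huh7 (Spearman 0.617) and is flat in HepG2 (0.0389).

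The rest of the pathway was described by lists written with earlier results of these data known, 105 genes in 7 lists from ligands to nuclear effectors and further target genes. Of these, 58 were tested in Huh7, with 4 called higher and 7 lower, beside 8.59% and 14% of all genes, and a median log2 difference of 0.03. Huh7 values in this and the next paragraphs are without removal of the GC trend. With it removed, fewer of the 58 were called in either direction, as given below, beside 5.6% higher and 6.27% lower of all genes. Which of the named genes stayed called is not reported here. In HepG2, 52 were tested, with 3 called higher and 3 lower, beside 3.29% and 2.98% of all genes, and a median of -0.03, against 0.12 for all genes. Among the 23 ligands and R-spondins, WNT3 alone was tested; it was at 1.93 FPKM in parental and 3.19 FPKM in resistant Huh7 cells (log2 difference 0.52, adjusted p = 0.00508) and at 6.66 and 5.36 FPKM in parental and resistant HepG2 cells (-0.24, adjusted p = 0.417). WNT3 was named after its values were seen.

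At the cell surface, 1 of 11 tested receptors was lower in Huh7 (ROR1, an orphan receptor that binds Wnt proteins, -1.06, adjusted p = 7.7e-05, limma) and 1 of 8 was higher in HepG2 (FZD4, a Frizzled receptor, 1.01, adjusted p = 0.00165). At an unadjusted p-value under 0.05, 2 of the 11 receptors were higher and 6 lower in Huh7. Limma called 8.59% of all genes higher and 14% lower there, and 3.29% higher in HepG2. Limma-voom called 2 of the 11 lower in Huh7, beside 21.2% of all genes. FZD4 went from 13.3 to 27.8 FPKM in HepG2 and was at 9.75 FPKM in parental and 9.87 FPKM in resistant Huh7 cells. Of 3 tested secreted antagonists and their partners in Huh7, KREMEN1, a receptor for DKK proteins, rose from 2.34 to 6.88 FPKM (1.25, adjusted p = 0.00012), and neither of the 2 tested in HepG2 passed both thresholds.

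Among genes of the degradation complex, its regulators, Dishevelled and CTNNB1, 3 of 18 tested fell in Huh7, where 14% of all genes did. In HepG2, limma called 0 of 19. At an unadjusted p-value under 0.05, 4 of the 19 were higher and 3 lower in HepG2, where 4300 of 11762 genes passed in either direction. Limma-voom called 1 higher there, beside 5.49% of all genes. In Huh7, 4 were higher and 7 lower at that unadjusted level, where 9145 of 12554 genes passed in either direction. Limma-voom called 2 higher and 3 lower in Huh7, beside 13.0% and 21.2% of all genes. The 3 genes called lower in Huh7 were APC, the scaffold lost in many colon tumours, from 8.68 to 2.43 FPKM (-1.47, adjusted p = 0.000291, limma), the kinase GSK3B from 37.7 to 18.1 FPKM (-1.03, adjusted p = 0.00012), and TNKS2, a tankyrase that marks AXIN proteins for degradation, from 33.5 to 15.7 FPKM (-1.06, adjusted p = 0.000219). APC was at 2.38 FPKM in parental and 4.43 FPKM in resistant HepG2 cells (0.69, adjusted p = 0.0551). AXIN1 was at 1.11 and 2.77 FPKM in parental and resistant Huh7 cells (0.84, adjusted p = 0.000731) and at 5.80 and 5.01 FPKM in HepG2 (-0.20, adjusted p = 0.451). CTNNB1 was at 39.98 ± 2.73 FPKM in parental and 43.7 ± 4.83 FPKM in resistant Huh7 cells (0.12, adjusted p = 0.371), and at 41.0 ± 0.901 FPKM in parental and 32.0 ± 1.48 FPKM in resistant HepG2 cells (SD, n = 3; -0.35, adjusted p = 0.0808).

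Of the nuclear effectors, TLE3 (1.39) and BCL9L (1.01) rose and TLE4 (-1.53) fell among 14 tested in Huh7, and TLE1 (-1.65) fell among 13 tested in HepG2. Beside them, 8.59% of all genes were called higher and 14% lower in Huh7, and 2.98% lower in HepG2. TLE proteins are corepressors of TCF factors and BCL9L a coactivator. TCF7L2, a TCF factor, was at 7.94 and 9.27 FPKM in parental and resistant Huh7 cells (0.20, adjusted p = 0.126, limma) and at 19.2 and 11.8 FPKM in HepG2 (-0.64, adjusted p = 0.029).

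Among 16 further target genes the directions were mixed. Of all genes, 8.59% were called higher and 14% lower in Huh7, and 3.29% and 2.98% in HepG2. In Huh7, FOSL1 (2.11) rose and TNFRSF19 (-1.59) and TCF4 (-1.25) fell among 9 tested, and in HepG2, TNFRSF19 (1.94) and BMP4 (1.13) rose and MYC (-1.66) and JUN (-1.51) fell among 8. TNFRSF19, a receptor of the TNF family, went from 20.8 to 79.5 FPKM in HepG2 (adjusted p = 0.00167, limma) and from 5.53 to 1.18 FPKM in Huh7 (adjusted p = 3.1e-05). MYC, the growth regulator, went from 284 to 89.3 FPKM in HepG2 (adjusted p = 0.000424) and from 33.5 to 62.5 FPKM in Huh7 (0.88, adjusted p = 0.000674). CCND1, cyclin D1, was at 80.4 and 101 FPKM in parental and resistant Huh7 cells (0.33, adjusted p = 0.0526) and at 49.4 and 60.2 FPKM in HepG2 (0.29, adjusted p = 0.206).

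Liver zonation genes, which β-catenin sets in the tissue, also moved in either direction. The calls of this paragraph stand beside 8.59% of all genes called higher and 14% lower in Huh7, and 3.29% and 2.98% in HepG2. Of 16 pericentral genes, 6 were tested in each line. In HepG2, the carboxylate transporter gene SLC13A3 (2.04) and the ammonia transporter gene RHBG (1.04) rose and SLC1A2, a glutamate transporter gene, fell (-1.17), and in Huh7, CYP1A1 rose (1.27) and LECT2 fell (-1.26). Of 13 periportal genes, 7 were tested in each line. HAL, the first enzyme of histidine breakdown, went from 24.3 to 0.504 FPKM in HepG2 (-4.00, adjusted p = 0.000157, limma) and from 2.48 to 22.8 FPKM in Huh7 (2.77, adjusted p = 4.45e-06). The urea cycle gene ASS1 fell in HepG2 (-1.62), and CDH1 rose in Huh7 (1.51). Of the 10 hepatocyte markers, AFP fell in both lines (-1.21 in Huh7 and -1.91 in HepG2) and FGB fell in HepG2.

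**Figure D5:**
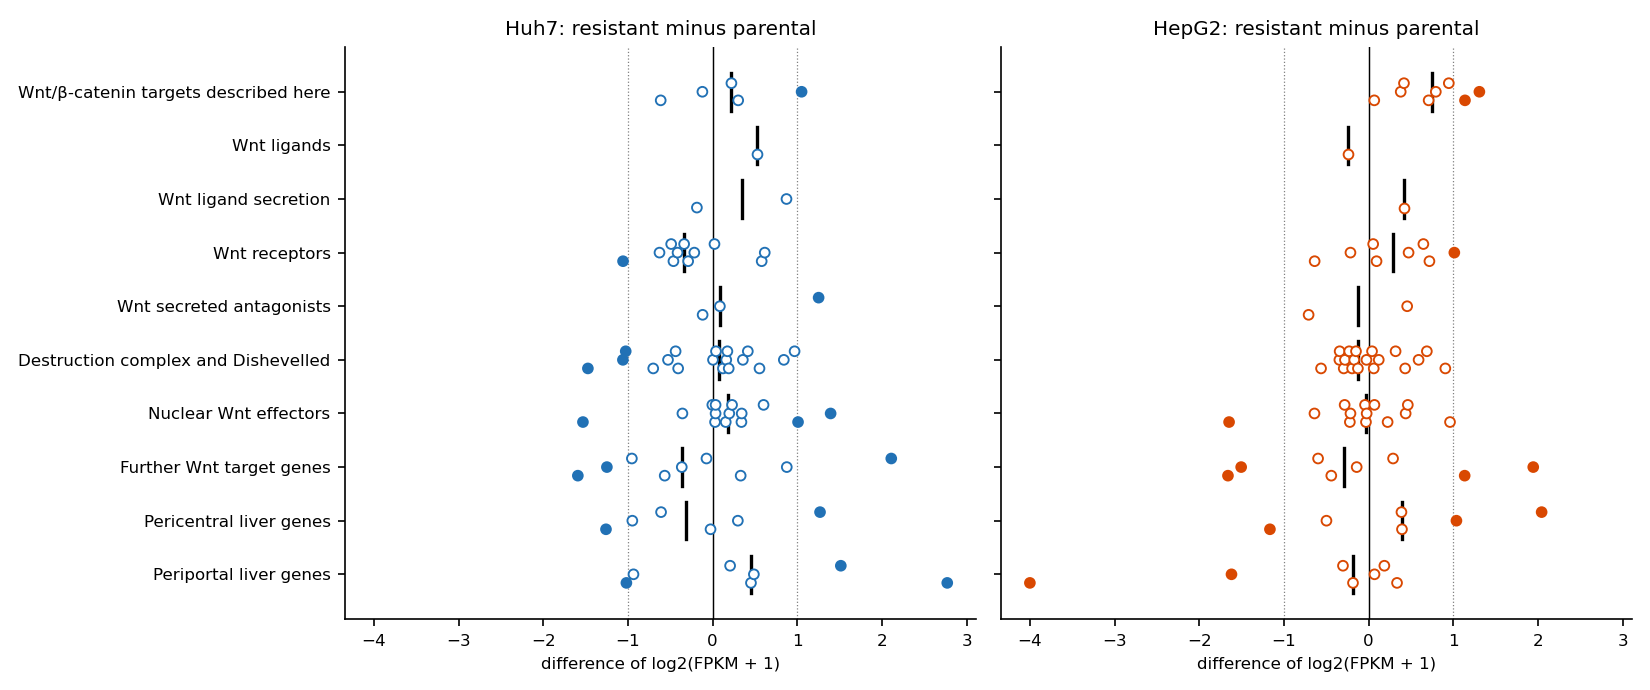
Resistant minus parental difference of log2(FPKM + 1) of every tested gene (x axis) in the target genes, the 7 pathway lists and the 2 zonation lists, by line; each point is a gene, filled points passed both thresholds, and black bars mark list medians. In HepG2 the 8 target genes all lie above 0 (median 0.75), while the other lists with more than 1 tested gene spread to either side.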

How the data were processed

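RNA-seq of 12 samples was analysed. According to the submitters' processing notes, reads were converted with bcl2fastq and the build was GRCh38; aligner, quantification tool and strand setting are not given in the sources used here. The authors deposited 1 table per sample with no stated unit. Multiplied by the exon length of GENCODE release 29, the deposited values fall on whole reads (within 0.05 for 99.8% to 99.9% of values of single-exon genes in a sample and 95.7% of 181190 values of genes with several exons), the pattern of FPKM or RPKM, which cannot be told apart; they are called FPKM. The 71462 NONCODE entries of 98711 were left out.

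The authors' FPKM were tested without rescaling, as log2(FPKM + 1), with limma 3.58.1 in R 4.3.3 (trend on mean expression) within each line, or in 1 fit of 4 group means for comparisons between lines. Differences on this scale understate the change of low genes. Python 3.11.15 with pandas 2.3.3, numpy 2.4.6 and scipy 1.17.1 gave exact permutation tests and binomial intervals of read ratios (95%, exact, counting error only). The fit was also run on simulated reads with a fixed spread between samples and no GC trend. That run cannot tell how the fit handles the spread and the GC trend of these data.

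The genes and lists were chosen with earlier results of these data known. All 10 target genes are described; of the lists, genes called within either line are named, plus CTNNB1, APC, AXIN1, TCF7L2, MYC and CCND1, and the 5 genes most like AXIN2. A gene that this rule selects is not reported here. Alternatives were a pseudocount of 0.1, no filter, median-ratio and upper-quartile scaling, no trend, other samples in the fit, the replicate number as a block, subtraction of each library's GC trend (lowess, span 0.3), limma-voom on read numbers calculated back and leaving out each sample. Promoter sequences are from RefSeq (GRCh38.p14).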

Additional observations from a re-analysis of the deposited data

Results flagged for a closer look

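For 4 target genes the change with resistance differed between the lines by the interaction test (limma over 12 samples, Benjamini-Hochberg adjusted over 13800 genes), and the signed difference, resistant minus parental, was greater in HepG2 each time. For NKD1 it was 1.22 on the log2 scale (adjusted p = 9.5e-05), and every resistant HepG2 sample lay above every parental one while the Huh7 values were all under 0.3 FPKM, near the floor of log2(FPKM + 1); the gene passed the filter through HepG2 alone, and limma-voom on read numbers gave 1.72 (adjusted p = 0.00012). For RNF43 it was 1.07 (adjusted p = 0.000188), with no overlap of groups in HepG2 and overlap in Huh7. TBX3 differed by 0.49 (adjusted p = 0.0283, and 0.0565 to 0.0695 in 6 of 12 leave-one-out fits). LGR5 differed by 0.68 (adjusted p = 0.0359, and 0.0634 to 0.0829 in 7 of them), being lower in the resistant cells of Huh7 and overlapping in HepG2. Among the other alternative fits, TBX3 also lost its call in 4 (0.17 to 0.50, adjusted p = 0.052 to 0.409, limma). LGR5 lost it in 5 (0.33 to 0.68, adjusted p = 0.0518 to 0.197, limma). With the GC trend removed, the resistant minus parental difference of LGR5 was -0.32 in Huh7 and -0.0156 in HepG2. An interaction greater in HepG2 was called for 33.2% of all genes tested.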

How the results depend on the processing

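Of the log2 differences of the target genes under alternatives, 695 kept their direction and side of the threshold, 29 lost and 8 gained a call, and 12 changed sign. In Huh7, called target genes numbered 1 higher and 0 lower, 0 higher with the GC trend removed, 0 to 1 higher when 1 sample was left out, and 2 lower (LEF1 and SP5) with no filter and limma-voom, a pair of choices added after the data had been seen. Pathway genes called in Huh7 numbered 4 higher and 7 lower. Higher calls were 7 with a pseudocount of 0.1, upper-quartile scaling or limma-voom, 1 with the GC trend removed, 13 with no filter and limma-voom and 3 to 5 when 1 sample was left out. The share of all genes called higher in Huh7 moved as well, from 8.59% to 12.6% with a pseudocount of 0.1 and 12.3% with upper-quartile scaling. It was 13.0% with limma-voom, 5.6% with the GC trend removed and 9.76% with no filter and limma-voom. Lower calls were 4 with median-ratio or upper-quartile scaling, 2 with the GC trend removed, 12 with no filter and limma-voom and 5 to 7 when 1 sample was left out. The share of all genes called lower in Huh7 went from 14% to 12.5% with median-ratio and 10.8% with upper-quartile scaling. It was 6.27% with the GC trend removed and 17.2% with no filter and limma-voom. In HepG2, target genes called higher were 2 to 3 when 1 sample was left out and 3 (SP5 added) with no filter and limma-voom, and the 3 higher pathway genes became 5 with a pseudocount of 0.1 or limma-voom, 1 with upper-quartile scaling, 7 with no filter and limma-voom and 2 to 4 when 1 sample was left out. The share of all genes called higher in HepG2 went from 3.29% to 5.2% with a pseudocount of 0.1 and 5.49% with limma-voom. It was 2.25% with upper-quartile scaling and 4.1% with no filter and limma-voom. The 4 interactions became 2 with median-ratio or upper-quartile scaling and 2 to 5 when 1 sample was left out. Against parental Huh7, parental HepG2 gained 1 lower gene (LEF1) with no filter and limma-voom, and the 4 higher genes became 5 with upper-quartile scaling (RNF43, 1.02). Of all genes, 20.6% were called lower in the first of these fits, in place of 18.3%, and 15.2% higher in the second, in place of 11.9%. Target genes called higher in resistant HepG2 than in resistant Huh7 were 5 to 6 when 1 sample was left out, 5 with upper-quartile scaling and 7 (SP5 added) with no filter. The share of all genes called higher there went from 13.4% to 11.9% with upper-quartile scaling and 6.73% with no filter. The cause of these changes was not tested.

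Signs changed for TBX3 in Huh7 with the GC trend removed (-0.15), for RNF43 in Huh7 with upper-quartile scaling (0.0263), for LGR5 in HepG2 with median-ratio scaling (-0.0441), upper-quartile scaling (-0.0740), the GC trend removed (-0.0156) and when 1 sample was left out (-0.0841 to 0.261, negative without resistant replicate 1 or parental replicate 2), for the interaction of GLUL with median-ratio scaling (-0.0887), upper-quartile scaling (-0.220), the GC trend removed (-0.181) and when 1 sample was left out (-0.0089 to 0.320, negative without HepG2 parental replicate 3), and for that of ZNRF3 with upper-quartile scaling (-0.0680). None of these had passed the test. With the GC trend removed, the interactions of AXIN2 (0.69, adjusted p = 0.00487, limma), NOTUM (0.80, adjusted p = 0.0318) and ZNRF3 (0.56, adjusted p = 0.0229) passed it, and without HepG2 resistant replicate 1 those of NOTUM (1.12, adjusted p = 0.0062) and AXIN2 (0.51, adjusted p = 0.0475) did.

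Samples with the same replicate number deviated from their group means with correlations of 0.084, 0.062 and -0.228 in Huh7 and 0.246, 0.437 and -0.011 in HepG2, so the numbers were not taken to pair the samples. With the replicate number as a block, 2 of the 4 interactions kept an adjusted p-value under 0.05, LGR5 (0.0518) and TBX3 (0.052) being lost, and no other count of target genes moved. In neither line did every sample correlate best with its own number. LEF1 throughout, SP5 in all but resistant HepG2 and NOTUM in Huh7 rest on under 100 reads a group, which limits their precision.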
